A study of Mus musculus with 9 samples.

Results

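The comparison described here set whole lungs of Dnmt1 conditional knockout (CKO) mouse embryos with a strong phenotype against whole lungs of wild type embryos, all at E18.5, shortly before birth. It holds 6 of the 9 libraries of the study, chosen by their labels: MUT_S_265_5, MUT_S_268_4 and MUT_S_860_3 are the strong CKO lungs, and WT_265_1, WT_268_1 and WT_549_2 are wild type. The CKO embryos carried Tbx4-rtTA, Tet-O-Cre and the genotype Dnmt1-D/D, and the wild type embryos are labelled with no transgene. Strong CKO lungs were small and bled throughout the parenchyma. The remaining 3 libraries came from CKO lungs of the same genotype that were small but did not bleed (weak CKO), and their values are given for reference, since both CKO groups are set against the same wild type libraries. The labels do not state an induction scheme or separate litters, so p-values speak only of how these samples vary among themselves. The Tbx4-rtTA driver is used to reach lung mesenchyme, while the RNA came from whole lung. Hence fewer cells of a type and less RNA per cell cannot be told apart here.

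Dnmt1 copies methyl groups onto the new DNA strand after replication, so cells that divide without it lose CpG methylation. Genes that depend on a methylated promoter for silence in somatic cells, many of them germ cell genes, are known to switch on in this state. In the late fetal lung, mesenchyme, capillaries and alveolar epithelium grow together and exchange FGF, Wnt, hedgehog, VEGF and PDGF signals, and the capillary wall is built by endothelial cells, pericytes and a shared basement membrane.

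The 6 libraries held 25607595 to 32485816 counts, and 19374 of 27207 genes passed the filter on low counts and were tested. Levels are CPM (counts scaled to library size, with TMM factors), always given in the library order above, and differences are log2 changes of strong CKO against wild type with a standard error (SE). A gene is called, and said to rise or fall, where edgeR's quasi-likelihood test gave a Benjamini-Hochberg adjusted p below 0.05. The lung epithelial gene Nkx2-1 held 343, 363 and 347 CPM in wild type and 315, 300.5 and 301 CPM in strong CKO, and the surfactant gene Sftpc was among the most abundant in each library. Dnmt1 itself held 79.1, 121 and 97.2 CPM in wild type and 62, 78.7 and 65.1 CPM in strong CKO, a change of −0.53 ± 0.17 (SE), adjusted p = 0.0433. The groups did not overlap, but the call ended when either WT_268_1, WT_549_2, MUT_S_265_5 or MUT_S_860_3 was left out, with changes between −0.67 and −0.36 when leaving out each library. Principal component 1 took up 59.14% of variance and placed the wild type libraries at −76.04 to −66.5 and the strong CKO libraries at 32.44 to 49.42.

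Some libraries stood apart in ways that the groups do not explain. The sexes were unequal: the Y-linked gene Ddx3y held 165, 0.0323 and 159 CPM in wild type and 0.0377, 0.0357 and 0 CPM in strong CKO, and the X inactivation transcript Xist held 2.51, 2076 and 4.51 CPM in wild type and 2120.2, 2436 and 2566 CPM in strong CKO. Thus the strong CKO libraries all lacked Y-linked expression, and so did WT_268_1 alone among the wild type. Comparisons were repeated with only the libraries without Y-linked expression, called the sex-matched fit below, which leaves 1 wild type, 2 weak CKO and 3 strong CKO libraries. The spread in it comes from the CKO libraries alone, and the wild type library is assumed to vary like them. Of 216 named genes called, 129 were also called in it. The others, Dnmt1 aside, number 86 and all kept their sign, 25 with a change at least as large as in the fit over all libraries and 9 with a change under that divided by 1.5. MUT_S_860_3 differed from all other libraries in interferon genes: 16 genes of 14091 (mean log2 CPM of at least 1) were over 4 times the next library there, among them Gbp2, Zbp1 and Tap1, and no other library had such a gene.

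Between strong CKO and wild type, 2830 genes rose (14.6% of those tested) and 2139 fell (11%). These shares are the background for the gene lists that follow, and the median log2 change over all tested genes was −0.000975. Weak CKO against the same wild type libraries gave 1761 rises (9.09%) and 1042 falls (5.38%). Large changes were mostly rises: 344 genes rose over 8-fold (1.78%) and 19 fell over 8-fold. The strong CKO libraries all lay above the wild type libraries in 22.7% of tested genes and all below them in 19%. Without MUT_S_265_5 the falls numbered 1164 and without MUT_S_860_3 1376. The sex-matched fit called 914 rises and 604 falls, and of 52 list counts of at least 4 calls 45 came to less in it than the count over all libraries divided by 1.5.

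Most germ cell genes tested rose. The promoters below belong to the 4 members of the germline list with the smallest adjusted p that the promoter table holds, and are shown because CpG sites are where Dnmt1 acts. Each run is the 250 bases upstream of the start that RefSeq gives on GRCm38.p6, 5′ to 3′ on the gene's strand, with each CpG in capitals. Gene positions elsewhere are GENCODE's, whose gene start can differ, and for Stag3 and Mov10l1 the window lies wholly or partly inside the GENCODE gene. Stag3 lies at chr5:138280259-138280508, plus strand, Tex13b at chrX:140813434-140813683, minus strand, Mov10l1 at chr15:88982744-88982993, plus strand and Rpl39l at chr16:10169978-10170227, plus strand.
Stag3: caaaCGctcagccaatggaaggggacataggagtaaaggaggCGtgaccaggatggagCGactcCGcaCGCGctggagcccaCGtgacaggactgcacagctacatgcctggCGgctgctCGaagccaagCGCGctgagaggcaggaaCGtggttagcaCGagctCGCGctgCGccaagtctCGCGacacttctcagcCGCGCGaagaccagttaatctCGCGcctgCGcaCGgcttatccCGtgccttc
Tex13b: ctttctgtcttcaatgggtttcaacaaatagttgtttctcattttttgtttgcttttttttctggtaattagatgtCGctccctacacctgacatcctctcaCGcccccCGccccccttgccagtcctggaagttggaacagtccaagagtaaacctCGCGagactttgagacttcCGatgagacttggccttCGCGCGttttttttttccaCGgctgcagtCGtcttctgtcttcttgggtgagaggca
Mov10l1: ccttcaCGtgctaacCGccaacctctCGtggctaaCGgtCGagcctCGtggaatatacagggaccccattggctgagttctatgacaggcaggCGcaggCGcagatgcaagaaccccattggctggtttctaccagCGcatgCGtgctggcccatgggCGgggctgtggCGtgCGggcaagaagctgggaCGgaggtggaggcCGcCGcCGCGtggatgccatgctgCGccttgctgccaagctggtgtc
Rpl39l: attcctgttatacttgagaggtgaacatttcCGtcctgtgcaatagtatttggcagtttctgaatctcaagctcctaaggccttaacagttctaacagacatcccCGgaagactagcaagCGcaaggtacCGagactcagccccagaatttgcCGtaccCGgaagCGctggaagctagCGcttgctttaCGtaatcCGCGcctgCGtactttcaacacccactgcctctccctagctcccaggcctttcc
Stag3 has 26 CpGs in this window (62.8% GC), Mov10l1 has 19 (64% GC), Rpl39l has 12 (51.6% GC) and Tex13b, on the X chromosome, has 11 (48% GC). The E-box CACGTG, a palindrome and so the same on both strands, occurs once in the Stag3 and Mov10l1 windows. Methylation was not measured in these libraries.

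Stag3 encodes a cohesin subunit of meiosis (ENSMUSG00000036928, chr5:138280240-138312393, plus strand). Its level was 2.48, 3.59 and 3.61 CPM in wild type and 59.7, 52.9 and 52.9 CPM in strong CKO, a log2 change of 4.09 ± 0.14 (SE), adjusted p = 3.15e-07. Mov10l1, a helicase of the piRNA pathway that silences transposons in germ cells (ENSMUSG00000015365, chr15:88982909-89055152, plus strand), held 0.105, 0.129 and 0.218 CPM in wild type and 17.9, 15.7 and 19.5 CPM in strong CKO (6.82 ± 0.28 (SE), adjusted p = 9.53e-07). Rpl39l, a testis copy of a ribosomal protein gene, held 0.105, 0.0969 and 0.0622 CPM in wild type and 31.2, 20.6 and 25.6 CPM in strong CKO (8.14), and Tex13b held 0.209, 0.194 and 0.187 CPM in wild type and 22.4, 18.9 and 24.9 CPM in strong CKO (6.78). In each of these genes the lowest strong CKO library lay far above the highest wild type library.

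The germline list as a whole had 49 tested members, of which 35 rose and 14 were not called. It held 68 genes, 62 of them with deposited counts. Members silent in wild type were tested only where CKO libraries express them, so the filter in part sets the share called. Of the 49, 29 rose over 8-fold. The median log2 change was 4.12. Its interquartile range was 0.66 to 6.31 with wild type set to 3 counts in the 8 called members that had 3 or fewer. The 14 not called included genes of the synaptonemal complex (Sycp3, Syce2, Hormad2), of the piRNA pathway (Tdrd1, Tdrd5, Pld6) and the meiosis trigger Stra8. Tex19.1, a germ cell gene linked to transposon control (ENSMUSG00000039329, chr11:121146143-121148319, plus strand), had 0 wild type counts and 31.6, 16.5 and 24.1 CPM in strong CKO, at least 731-fold higher (floor of 3 counts over the wild type libraries). Dazl, an RNA-binding regulator of germ cells, held 0.244, 0.291 and 0.218 CPM in wild type and 259, 201 and 287 CPM in strong CKO (9.93 ± 0.33 (SE), adjusted p = 9.53e-07). Taf7l, a testis form of a general transcription factor subunit, held 0, 0.0323 and 0.124 CPM in wild type and 74.4, 53 and 69 CPM in strong CKO (10.13). Sohlh2, a germ cell transcription factor, held 0, 0.0646 and 0.0622 CPM in wild type and 55.1, 44.9 and 57 CPM in strong CKO (10.10). Some rises rest on few counts: the ratio for Fkbp6, picked after its values were seen, was 719 with a 95% counting interval of 129 to 28400.

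**Figure D1:**
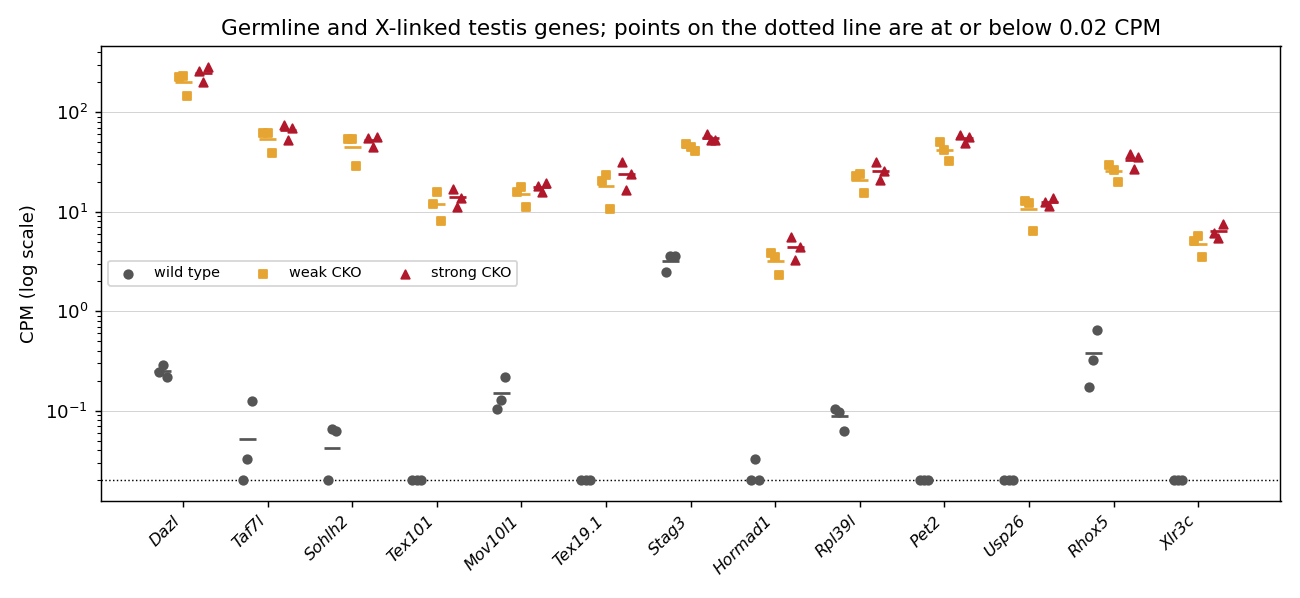
Level of germline and X-linked testis genes in CPM on a log axis, with 1 point per library, a dash at each group mean, and colours for wild type, weak CKO and strong CKO. Points on the dotted line are at or below 0.02 CPM, and in every gene drawn the strong CKO points lie above the wild type points.

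Of the X-linked gene families of the testis, 25 of 26 tested members rose, and the exception was Xlr3b (0.27). The list held 51 genes, 34 of them with deposited counts. A gene silent in wild type passes the filter on low counts only where CKO libraries express it. The share called is therefore in part set by the filter. The fitted median was 6.50, or 4.39 with wild type set to 3 counts in the 17 called members that had 3 or fewer. In this list 14 members had 0 wild type counts. Pet2 (ENSMUSG00000035395, chrX:89403848-89409689, minus strand) had 0 wild type counts and 59.5, 48.7 and 56.4 CPM in strong CKO, at least 1680-fold higher. Usp26, a testis deubiquitinase, held 12.5, 11.5 and 13.9 CPM, at least 387-fold higher, and Xlr3c 6.1, 5.49 and 7.46 CPM, at least 195-fold higher. Rhox5, the founding member of the reproductive homeobox cluster, was detected in wild type as well and held 0.174, 0.323 and 0.653 CPM in wild type and 37.7, 26.7 and 35.1 CPM in strong CKO (6.39 ± 0.33 (SE), adjusted p = 4.58e-06). Members of these families are near copies, so how reads were split between them is uncertain. The X chromosome held 63 of the 344 rises over 8-fold, 9.83% of its 641 tested genes against 1.78% of all tested genes. Of any size it had 119 rises (18.6%, against 14.6% of all tested genes) and 127 falls (19.8%, against 11%), with a median of −0.033. The groups differ in sex, as given above, and the part of sex in these shares was not tested.

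Promoter windows of the 2 groups differed in CpG content. The 31 called germline genes with a RefSeq promoter had a median of 15 CpGs per 250 bases, and the 22 called X-linked family members had 5. Over all 13071 tested genes with a promoter the median was 14, and over the 195 with a rise above 8-fold it was 6. CACGTG occurred in 12 of the 31 called germline promoters (38.7%), in 4 of the 14 germline promoters not called (28.6%), in 1 of the 22 X-linked ones (4.55%) and in 7.83% of tested genes. The share was above that of tested genes in called and uncalled germline genes alike.

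Other genes that DNA methylation is known to govern moved in both directions. Among 44 imprinted genes, 9 rose, 10 fell and 25 were not called (median −0.09). The growth-restraining noncoding RNA H19 held 1012, 1073 and 995 CPM in wild type and 2737, 2117 and 2527 CPM in strong CKO (1.26 ± 0.10 (SE), adjusted p = 3.31e-05). Igf2r, the receptor that clears IGF2, held 778, 800.1 and 762 CPM in wild type and 325, 433 and 344 CPM in strong CKO (−1.09 ± 0.11 (SE), adjusted p = 1.31e-04). Dcn, a collagen-binding proteoglycan of connective tissue, held 29.9, 32.1 and 25.4 CPM in wild type and 128, 92.7 and 120.3 CPM in strong CKO (1.96 ± 0.13 (SE), adjusted p = 9.41e-06), and Impact rose by 0.85. Zim1, a zinc finger gene, held 120.4, 54.9 and 41.2 CPM in wild type and 11.1, 15.5 and 7.12 CPM in strong CKO (−2.68), and its call ended in the sex-matched fit. In that fit 3 imprinted genes rose and 4 fell.

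Of 46 clustered protocadherins, adhesion molecules whose promoters are chosen stochastically in neurons, 13 rose and 33 were not called (median 0.30). Pcdhb2 held 0.244, 0.549 and 0.156 CPM in wild type and 1.09, 1.25 and 1.97 CPM in strong CKO (2.17 ± 0.43 (SE), adjusted p = 0.00444), Pcdhga7 changed by 0.85 and Pcdhb15 by 1.05. With a covariate for the Y-linked level 6 protocadherins rose, and 2 in the sex-matched fit. Among 18 Hox genes of the lung, which set position along the body axis, 6 rose, 2 fell and 10 were not called. The rises were in the Hoxc and Hoxb clusters: Hoxc4 held 0.349, 0.258 and 0.405 CPM in wild type and 2.97, 2.71 and 2.71 CPM in strong CKO (3.04 ± 0.25 (SE), adjusted p = 3.32e-05), Hoxc5 changed by 3.26 and Hoxb8 by 2.07. Hoxc6 had 0 wild type counts and 1.24, 1.14 and 1.71 CPM in strong CKO, at least 42-fold higher.

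Endothelial genes, which mark the inner lining of the vessels, mostly fell: of 30 tested members, 26 fell and 4 were not called (median −0.55 in strong CKO, −0.36 in weak CKO). Sox17, a transcription factor of arterial endothelium (ENSMUSG00000025902, chr1:4490931-4497354, minus strand), held 119, 88.6 and 115 CPM in wild type and 53.3, 63.4 and 56 CPM in strong CKO (−0.90 ± 0.11 (SE), adjusted p = 4.49e-04). Tie1, a receptor of the angiopoietin system, held 260.5, 202 and 256 CPM in wild type and 123, 151 and 140.2 CPM in strong CKO (−0.79 ± 0.11 (SE), adjusted p = 7.17e-04), and Cdh5, the cadherin that joins endothelial cells (ENSMUSG00000031871, chr8:104101625-104144511, plus strand), held 846, 661 and 705 CPM in wild type and 351, 488 and 435 CPM in strong CKO (−0.80 ± 0.12 (SE), adjusted p = 0.00143). In all 3 genes no strong CKO library reached the lowest wild type library, as in 2108 of the 2139 falls. Flt4, the receptor for VEGFC and VEGFD, changed by −0.63. The sex-matched fit called 3 falls, with a median of −0.365, and a fit with a covariate for the Y-linked level 15, and Cdh5 was not called in the first.

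Genes of the vessel subtypes fell more often than they rose. Of 21 capillary genes, 1 rose, 13 fell and 7 were not called (median −0.59 in strong CKO, −0.26 in weak CKO). Ednrb, an endothelin receptor that marks a class of lung capillary cells, held 306, 244 and 239.6 CPM in wild type and 123, 151 and 104 CPM in strong CKO (−1.07 ± 0.13 (SE), adjusted p = 5.32e-04). Kit, a receptor shared by capillary and mast cells, changed by −0.93, its ligand gene Kitl by −0.75, and Gpihbp1, which anchors lipoprotein lipase to capillaries, by −0.59. Of 18 artery and vein genes, 1 rose, 9 fell and 8 were not called, with falls in the arterial connexin Gja5 (−0.70) and the venous regulator Nr2f2 (−0.36). The 10 lymphatic genes gave 5 falls, among them the hyaluronan receptor Lyve1 (−0.91), and 1 rise, the valve regulator Foxc2, which held 0.593, 0.646 and 0.498 CPM in wild type and 2.75, 1.43 and 2.24 CPM in strong CKO (1.88 ± 0.28 (SE), adjusted p = 0.00118). Without MUT_S_265_5 the falls numbered 7 in capillary, 5 in artery and vein and 3 in lymphatic genes. The artery and vein falls also numbered 5 without WT_265_1, and Kit, Kitl, Gpihbp1, Nr2f2, Lyve1 and Foxc2 were not called in the sex-matched fit.

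Pericyte genes, which mark the mural cells wrapped around capillaries, gave 11 falls and 3 rises of 18 tested (median −0.58 in strong CKO, −0.30 in weak CKO). Pdgfrb, the receptor by which endothelium recruits pericytes (ENSMUSG00000024620, chr18:61045150-61085061, plus strand), held 175, 182 and 189.7 CPM in wild type and 113, 128 and 130.2 CPM in strong CKO (−0.56 ± 0.11 (SE), adjusted p = 0.00458). Ndufa4l2 and Cox4i2, mitochondrial subunits abundant in lung pericytes, changed by −1.29 and −1.33. Kcnj8, the pore of a potassium channel in the same cells, went the other way and held 17.6, 17.4 and 17.9 CPM in wild type and 27, 27.9 and 37 CPM in strong CKO (0.80 ± 0.14 (SE), adjusted p = 0.00244), so the list did not fall evenly. The falls numbered 6 without MUT_S_265_5 and 7 without MUT_S_860_3, and all 4 genes named lost their call in the sex-matched fit.

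Signals and receptors of vessel growth fell more often than they rose. Of 25 VEGF and angiopoietin genes, 2 rose, 15 fell and 8 were not called (median −0.44 in strong CKO, −0.33 in weak CKO). Angpt1, the ligand of the TEK receptor made by mesenchyme and pericytes (ENSMUSG00000022309, chr15:42424723-42676977, minus strand), held 91, 76.4 and 64.7 CPM in wild type and 31.7, 44.3 and 34.6 CPM in strong CKO (−1.07 ± 0.14 (SE), adjusted p = 7.27e-04). Adm, the vasoactive peptide adrenomedullin, held 10.6, 6.07 and 8.09 CPM in wild type and 2.49, 2.18 and 2.57 CPM in strong CKO (−1.77 ± 0.21 (SE), adjusted p = 3.24e-04). Vegfd, a ligand expressed in lung fibroblasts, changed by −0.91. Among 25 basement membrane genes, 1 rose, 12 fell and 12 were not called (median −0.37 in strong CKO, −0.25 in weak CKO). The laminin chain gene Lama2 held 100.5, 86.6 and 80.4 CPM in wild type and 50.8, 66.4 and 59.8 CPM in strong CKO (−0.60 ± 0.11 (SE), adjusted p = 0.00276), the laminin-like Ntn4 changed by −0.95 and the integrin ligand Npnt by −0.49. DESeq2 called 19 basement membrane falls. With a covariate for the Y-linked level the VEGF and angiopoietin falls numbered 9. In the sex-matched fit the medians were −0.331 for VEGF and angiopoietin genes and −0.467 for basement membrane genes. Lama2 (−0.56), Ntn4 (−0.61) and Npnt (−0.45) were not called in that fit.

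Cell junction genes of vessels and epithelium gave 10 falls and 2 rises of 26 (median −0.19). Jup, which encodes plakoglobin, changed by −0.38, the endothelial adhesion gene Esam by −0.53 and Jam3 by 0.64. Without MUT_S_265_5 the falls numbered 4, and 5 without MUT_S_860_3 or with a covariate for the Y-linked level. In the sex-matched fit the median was −0.191, and Esam (−0.34) was not called. Coagulation and fibrinolysis genes were mixed, with 6 rises and 3 falls of 26 (median 0.09, between 0.023 without WT_549_2 and 0.156 without WT_268_1). Thbd, the thrombin receptor that turns thrombin into an anticoagulant, held 359, 282 and 322 CPM in wild type and 137, 211 and 159.8 CPM in strong CKO (−0.92 ± 0.15 (SE), adjusted p = 0.0022). Plat, which activates plasminogen, held 16.6, 19.5 and 15.6 CPM in wild type and 33.8, 28.9 and 25.6 CPM in strong CKO (0.77 ± 0.13 (SE), adjusted p = 0.00226), and the protease inhibitor Serpine2 changed by 0.79. Thbd and Plat were not called in the sex-matched fit, and coagulation rises numbered 3 without WT_268_1, WT_549_2 or MUT_S_265_5. Among 15 platelet genes, 1 rose, 1 fell and 13 were not called (median 0.73 in strong CKO, −0.21 in weak CKO). The strong CKO median became 0.47 without MUT_S_860_3. The rise was Pf4 (0.85), which is in the macrophage list as well. Clec1b changed by −1.44, and its call ended when any of 4 libraries was left out.

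**Figure D2:**
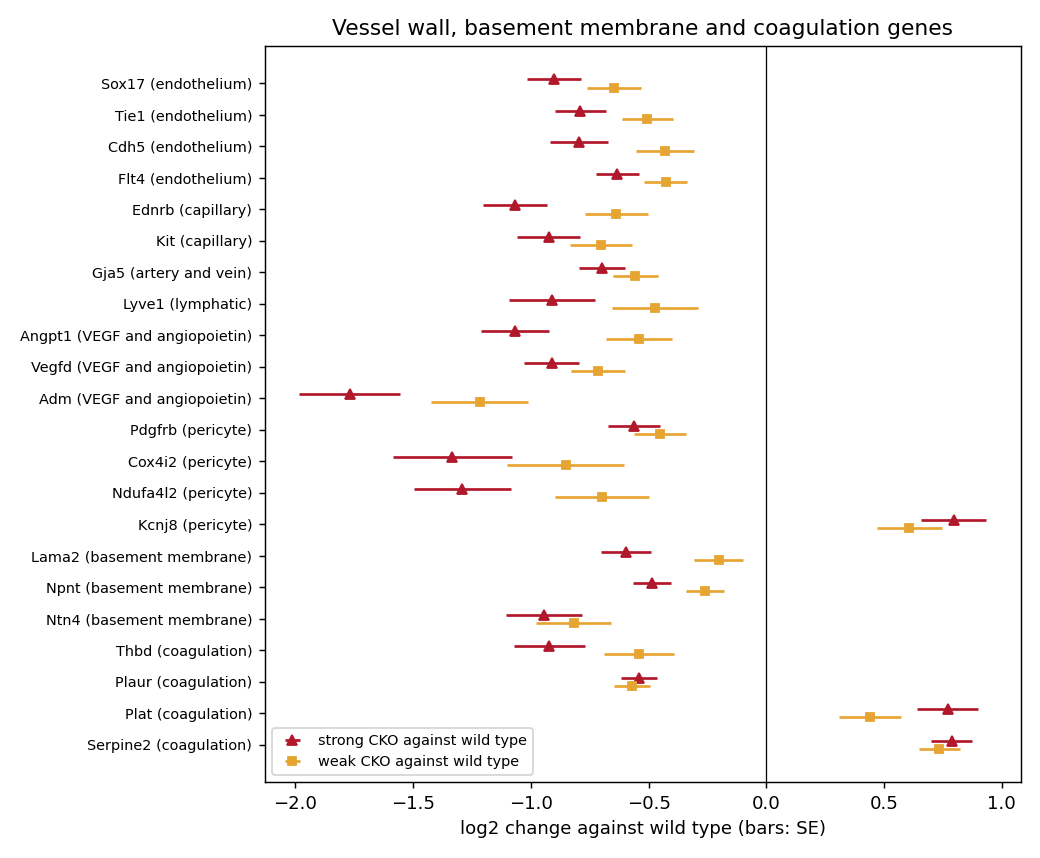
Log2 change against wild type for named genes of the vessel wall, basement membrane and coagulation in strong CKO (triangles) and weak CKO (squares), with bars of 1 SE. Endothelial, capillary and angiogenic genes lie below 0, and Kcnj8, Plat and Serpine2 lie above it. Both groups share the wild type libraries.

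Blood genes did not separate the groups clearly. Haemoglobin genes took 0.669%, 0.369% and 0.491% of counts in wild type and 0.712%, 0.67% and 1.25% in strong CKO. The means were 0.509 ± 0.151% and 0.878 ± 0.324% (SD, n = 3; exact two-sided permutation p = 0.1, the smallest that 3 against 3 libraries allow). MUT_S_860_3 held the highest share, and MUT_S_268_4 lay just above WT_265_1. Hbb-bs, the adult beta chain gene, held 4787, 2536 and 3399.7 CPM in wild type and 4607, 4453 and 8407 CPM in strong CKO, a change of 0.70 ± 0.28 (SE), adjusted p = 0.0956, and was not called. Of 7 haemoglobin genes, Hba-x, an embryonic alpha-type chain gene, was called (1.12, 0.937 and 0.716 CPM in wild type and 2.41, 1.18 and 2.17 CPM in strong CKO, 1.06 ± 0.31 (SE), adjusted p = 0.0301), and the call ended without WT_268_1, WT_549_2, MUT_S_265_5 or MUT_S_860_3. The remaining chains changed by 0.92 (Hba-a2), 0.80 (Hba-a1), 0.38 (Hbb-bt), 0.30 (Hbb-y) and −0.22 (Hbq1b) and were not called. The haemoglobin median of 0.70 became 0.318 without MUT_S_860_3, and in weak CKO it was −0.43.

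Genes of red cell precursors gave falls and no rises. Of 30 erythroid genes, 6 fell and 24 were not called (median −0.17 in strong CKO, −0.43 in weak CKO). Tmcc2 changed by −0.66, and the carbonic anhydrase Car2, also made outside blood, by −1.08. Aqp1, a water channel of red cells that capillary endothelium expresses as well, held 606, 622 and 658 CPM in wild type and 432, 434 and 382 CPM in strong CKO (−0.60 ± 0.09 (SE), adjusted p = 0.00114). The mean erythroid level was 3.36 ± 0.206 in strong CKO and 3.56 ± 0.278 in wild type on the log2 CPM scale (SD, n = 3, exact two-sided permutation p = 0.5). The median became −0.0727 without WT_265_1 and −0.283 without WT_549_2, and the falls numbered 3 without MUT_S_265_5. Car2 and Tmcc2 were not called in the sex-matched fit.

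Genes that handle heme and iron rose in part. Of 25 tested, 12 rose and 13 were not called (median 0.43 in strong CKO, 0.29 in weak CKO). Hmox1, the oxygenase that breaks down heme and a response gene of cells that take up red cell debris (ENSMUSG00000005413, chr8:75093621-75100589, plus strand), held 27.4, 23.4 and 23.7 CPM in wild type and 179.5, 116 and 211 CPM in strong CKO (2.76 ± 0.37 (SE), adjusted p = 0.00167). Every strong CKO library was above every wild type library, and in weak CKO, where no bleeding was seen, the libraries held 38, 99.7 and 67.7 CPM (1.46 against wild type). Hp, the haemoglobin scavenger haptoglobin, held 299.6, 223 and 225 CPM in wild type and 669, 535 and 596 CPM in strong CKO (1.27 ± 0.20 (SE), adjusted p = 0.00212). Steap4, an iron reductase, rose by 1.71, and Slc7a11, the cystine importer that feeds glutathione synthesis, by 1.63. The sex-matched fit called 4 rises, with a median of 0.583, and did not call Hmox1 (2.85), Hp (1.42) or Slc7a11 (1.56).

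Macrophage genes also rose in part: of 28 tested, 15 rose, 1 fell and 12 were not called (median 0.64 in strong CKO, 0.56 in weak CKO). The complement genes C1qb and C1qc, made by tissue macrophages, held 18.6, 13.5 and 16.7 CPM in wild type and 41.8, 33.5 and 59.3 CPM in strong CKO and 20.7, 16 and 17.3 CPM in wild type and 41, 35.6 and 52.8 CPM in strong CKO, respectively, log2 changes of 1.47 and 1.26. Trem2, a lipid-sensing receptor of macrophages, held 3.11, 2.87 and 3.61 CPM in wild type and 8.06, 8.56 and 7.39 CPM in strong CKO (1.32 ± 0.18 (SE), adjusted p = 7.17e-04), and Ms4a7 changed by 1.72. The macrophage median became 0.947 without WT_265_1 and 0.951 in the sex-matched fit, which did not call C1qb (1.73) or Ms4a7 (1.75). Neutrophil genes gave 2 rises and 1 fall of 17 tested (median −0.52), a median that became −0.0157 without WT_265_1 and −0.795 without WT_268_1. The neutrophil receptor gene Cd177 held 5.58, 4.68 and 3.8 CPM in wild type and 11.7, 11.3 and 9.83 CPM in strong CKO (1.22 ± 0.16 (SE), adjusted p = 4.86e-04). The summed level of the macrophage list was 3903, 1959 and 2688 CPM in wild type and 1627, 2072 and 2270.0 CPM in strong CKO. Its part in the rises of inflammatory and iron genes was not tested.

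Mast cell proteases rose. In the list of lymphocytes and mast cells 5 of 16 tested members rose and 1 fell, and 3 of the 5 encode granule proteases. Tpsb2, a tryptase (ENSMUSG00000033825, chr17:25366305-25369098, plus strand), held 5.62, 1.68 and 4.45 CPM in wild type and 62.8, 15.7 and 42.2 CPM in strong CKO (3.36 ± 0.60 (SE), adjusted p = 0.00624). Cma1, a chymase, held 4.54, 1.36 and 3.05 CPM in wild type and 52.1, 12 and 28.9 CPM in strong CKO (3.38), and Cpa3, a carboxypeptidase of mast cell granules, held 8.86, 4.43 and 6.44 CPM in wild type and 86.5, 20.1 and 48.9 CPM in strong CKO (2.98). Among strong CKO libraries MUT_S_268_4 was the lowest for each of the 3, and the calls ended in the sex-matched fit. Rises in the list numbered 3 without WT_268_1 or without WT_549_2. Kit, a mast cell receptor, fell, as given above.

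Chemokine and cytokine genes rose in part. Of 30 chemokines and receptors, 16 rose, 3 fell and 11 were not called (median 1.14 in strong CKO, 0.73 in weak CKO). Ccl2, which draws monocytes (ENSMUSG00000035385, chr11:82035571-82037453, plus strand), held 0.349, 0.614 and 0.498 CPM in wild type and 20, 7.28 and 21.2 CPM in strong CKO (5.03 ± 0.46 (SE), adjusted p = 1.21e-04), against 6.44, 7.9 and 5.51 CPM in weak CKO (3.75). Cxcl1, a neutrophil attractant, held 0.523, 0.388 and 0.28 CPM in wild type and 3.35, 1.71 and 3.71 CPM in strong CKO (2.88 ± 0.38 (SE), adjusted p = 5.80e-04). Cxcl13, which attracts B cells, changed by 1.79 and Ccl9 by 1.17. Among 28 inflammatory and acute phase genes, 13 rose, 1 fell and 14 were not called (median 0.64 in strong CKO, 0.26 in weak CKO). Saa3, an acute phase protein gene, held 2.13, 0.872 and 2.61 CPM in wild type and 139, 102 and 137 CPM in strong CKO (6.07 ± 0.41 (SE), adjusted p = 6.13e-05), the anti-inflammatory Tnfaip6 changed by 1.84, and the leukocyte adhesion genes Icam1 and Vcam1 changed by 0.52 and 0.66. The sex-matched fit called 5 chemokine and 4 inflammatory rises.

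Interferon genes rested on 1 library. Among 37 tested, Ifi27 fell (−0.83) and 36 were not called, with 2 rises and 2 falls at an unadjusted p below 0.05 in edgeR and, adjusted, 1 fall in DESeq2. The median of 0.35 became −0.347 without MUT_S_860_3, and lay between 0.142 and 0.616 without any other single library. That library was the highest of all 9 in 33 of the 37 genes. Gbp2, a guanylate-binding protein gene induced by interferon gamma and picked after its values were seen, held 20.6, 20.1 and 443 CPM in strong CKO and 20.3, 16.1 and 17.5 CPM in wild type. Genes of MHC and antigen presentation behaved alike: MUT_S_860_3 was the highest in 18 of 22, and the median of 0.65 became 0.0561 without it. Nlrc5, a regulator of MHC class I genes also picked afterwards, held 1.05, 0.749 and 68.3 CPM in strong CKO. H2-DMa was called (4.57, 3.29 and 3.8 CPM in wild type and 6.25, 5.71 and 11.5 CPM in strong CKO, 1.01), and that call ended without MUT_S_860_3, WT_268_1 or WT_549_2.

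**Figure D3:**
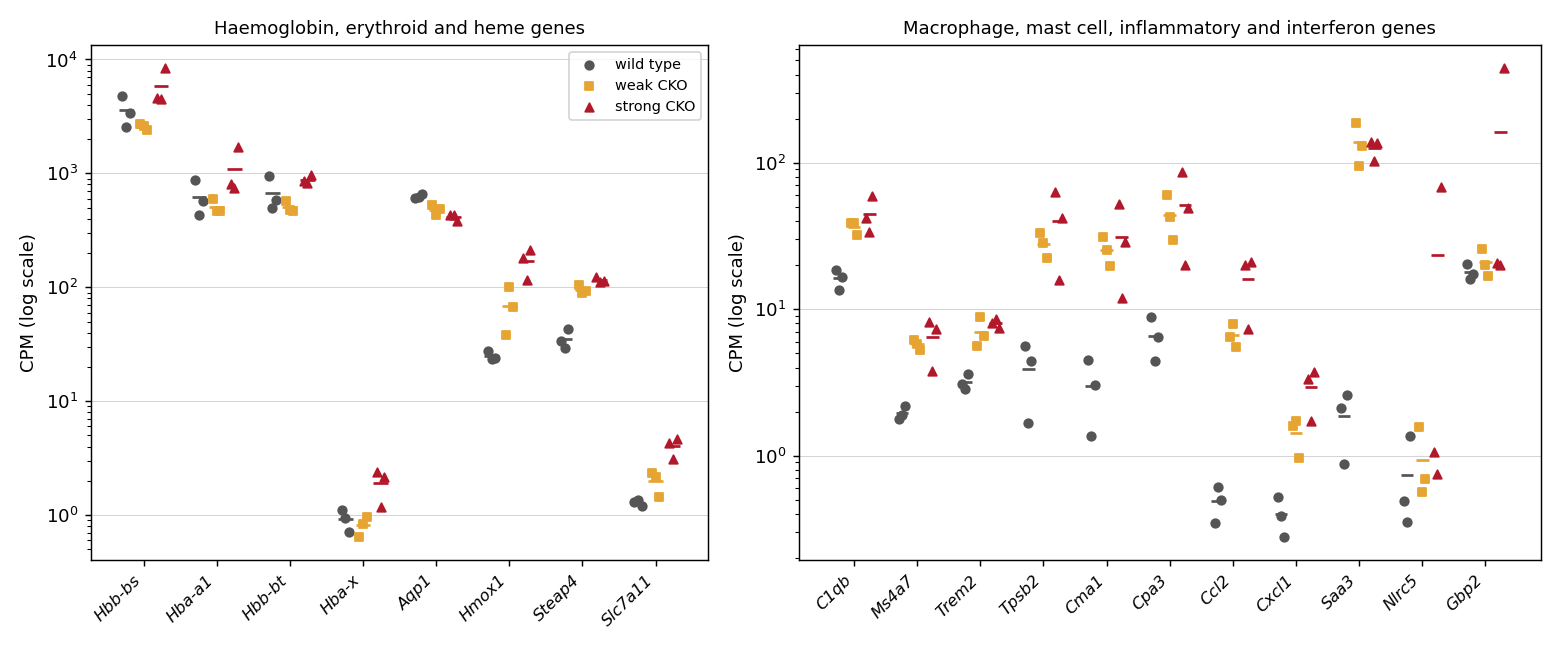
Level of blood and heme genes (left) and of macrophage, mast cell, inflammatory and interferon genes (right) in CPM on a log axis, with 1 point per library, a dash at each group mean, and colours for wild type, weak CKO and strong CKO. Hmox1 and Ccl2 are higher in all strong CKO libraries than in wild type, while Gbp2 is high in MUT_S_860_3 alone.

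In the mesenchyme, the compartment the driver is used to reach, lung fibroblast genes fell. Of 30 genes of lung mesenchyme and lipofibroblasts, 1 rose, 21 fell and 8 were not called (median −0.58 in strong CKO, −0.37 in weak CKO). Wnt2, a mesenchymal ligand of early lung growth (ENSMUSG00000010797, chr6:17988940-18030585, minus strand), held 73.2, 75.3 and 69.8 CPM in wild type and 21, 28.9 and 27.3 CPM in strong CKO (−1.50 ± 0.13 (SE), adjusted p = 5.89e-05). Itga8, the integrin chain of lung fibroblasts, held 304, 248 and 224 CPM in wild type and 125, 139 and 119.9 CPM in strong CKO (−1.02 ± 0.11 (SE), adjusted p = 1.32e-04). Gyg, which primes glycogen synthesis, changed by −1.34 and Limch1, an actin-binding protein gene, by −1.20. Foxf1, a mesenchymal transcription factor picked after its values were seen, held 152, 168 and 165 CPM in wild type and 89.5, 129 and 104 CPM in strong CKO (−0.59). In the sex-matched fit 9 members fell.

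Contractile and matrix genes were split. Of 20 smooth muscle and myofibroblast genes, 5 rose, 3 fell and 12 were not called. The calponin gene Cnn1 held 2.97, 4.59 and 2.43 CPM in wild type and 10.4, 8.78 and 7.12 CPM in strong CKO (1.40 ± 0.23 (SE), adjusted p = 0.00209) and the filament gene Des 29.2, 35.5 and 34.4 CPM in wild type and 84.4, 49.5 and 58.3 CPM in strong CKO (0.95 ± 0.17 (SE), adjusted p = 0.00381), whereas the myosin kinase gene Mylk changed by −0.72 and Hhip, a hedgehog antagonist expressed there, by −1.09. The 5 rises became 3 without WT_265_1 or without MUT_S_265_5, and Cnn1, Des and Hhip were not called in the sex-matched fit. Elastic fibre genes gave 7 rises and 2 falls of 22: Fbln1 held 44.8, 57.6 and 59.7 CPM in wild type and 167, 147 and 195 CPM in strong CKO (1.65 ± 0.12 (SE), adjusted p = 1.94e-05), and the microfibril gene Mfap4 held 2574, 2902 and 3166 CPM in wild type and 1194, 1516 and 1241 CPM in strong CKO (−1.13 ± 0.14 (SE), adjusted p = 3.19e-04). The rises numbered 4 without MUT_S_265_5 or without MUT_S_860_3. Of 23 collagen genes, 8 rose, 6 fell and 9 were not called: Col8a2 changed by 1.80, Col16a1 by 1.17, Col26a1 by 1.99 and Col6a4 by −2.91. Among 24 matrix proteases and inhibitors, 3 rose, 8 fell and 13 were not called. Mmp3, stromelysin, held 0, 0.0646 and 0.0622 CPM in wild type and 1.02, 0.856 and 1.87 CPM in strong CKO (4.72 ± 0.62 (SE), adjusted p = 4.47e-04), Adamts9 changed by −0.93 and Adamts17 by −1.84.

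The 12 largest falls under the naming rule covered enzymes, transporters and receptors. Inmt, a methyltransferase of lung stroma, held 175, 15.8 and 46.1 CPM in wild type and 2.26, 7.14 and 1.54 CPM in strong CKO (−4.44 ± 1.06 (SE), adjusted p = 0.0238), and its call ended without MUT_S_265_5 or MUT_S_860_3. C7, a terminal complement component, held 56.5, 36.2 and 37.4 CPM in wild type and 4.37, 7.28 and 5.92 CPM in strong CKO (−2.89 ± 0.25 (SE), adjusted p = 7.81e-05). Adcy8, an adenylate cyclase, held 12.3, 8.88 and 10.5 CPM in wild type and 0.414, 1.68 and 0.635 CPM in strong CKO (−3.53 ± 0.56 (SE), adjusted p = 0.00238), and Slc13a4, a sulfate transporter, changed by −3.37, Mchr1 by −2.88, Aspa by −2.82 and Pcdh20 by −2.59.

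Some alveolar epithelial genes fell. Of 26 type 2 genes, which serve surfactant production, 12 fell and 14 were not called (median −0.34 in strong CKO, −0.12 in weak CKO). The strong CKO median became −0.196 without WT_265_1. Lpcat1, an enzyme of surfactant lipid synthesis, held 856, 781 and 853 CPM in wild type and 507, 604 and 561 CPM in strong CKO (−0.57 ± 0.09 (SE), adjusted p = 0.00122), Etv5, a transcription factor downstream of FGF signals, changed by −0.47, Lamp3 by −0.58 and Acoxl by −2.01. Sftpc changed by −0.46 and was not called. Of 25 type 1 genes, the flat gas-exchange cells, 1 rose, 9 fell and 15 were not called (median −0.28 in strong CKO, −0.23 in weak CKO). Pdpn, a surface protein of type 1 and lymphatic cells, held 192, 136 and 164 CPM in wild type and 96.3, 107 and 97.3 CPM in strong CKO (−0.71 ± 0.12 (SE), adjusted p = 0.00254), and Lmo7 changed by −0.53. Without MUT_S_265_5 the falls numbered 5 in each list, and without MUT_S_860_3 7 of type 2 and 5 of type 1. With a covariate for the Y-linked level they numbered 3 in each, and Lamp3 and Acoxl were not called in the sex-matched fit. DESeq2 called 16 type 1 falls.

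Many genes of the conducting airways rose. Of 30 motile cilia genes, 22 rose and 8 were not called (median 0.89 in strong CKO, 0.76 in weak CKO), and every member's fitted change was above 0 (lowest 0.15, highest 1.23). Rsph1, a radial spoke protein gene, held 18.4, 17.6 and 17.9 CPM in wild type and 40, 37.2 and 36.5 CPM in strong CKO (1.08 ± 0.07 (SE), adjusted p = 6.55e-06). Ccno, which drives centriole amplification in cells about to grow many cilia (ENSMUSG00000042417, chr13:112987802-112990777, plus strand), held 9.32, 8.56 and 8.06 CPM in wild type and 21.8, 16.6 and 18.8 CPM in strong CKO (1.14 ± 0.12 (SE), adjusted p = 1.60e-04), Myb, an early regulator of the same cells, changed by 0.98 and Tekt1 by 0.93. Of 20 secretory cell genes, 12 rose, 1 fell and 7 were not called (median 1.11 in strong CKO, 0.84 in weak CKO): Scgb3a2, a secretoglobin, held 771, 580.3 and 588 CPM in wild type and 1904, 1361 and 1641 CPM in strong CKO (1.34 ± 0.16 (SE), adjusted p = 3.21e-04), Bpifb1 changed by 2.17, the lectin gene Reg3g by 2.62 and Aldh1a1 by 1.09. Of 19 neuroendocrine genes, 13 rose, 1 fell and 5 were not called (median 1.34 in strong CKO, 1.03 in weak CKO). The strong CKO median was 0.192 on the log2(RPKM + 1) scale, which shrinks the changes of low genes. The list's sums overlapped between the groups, at 130.5, 83.9 and 94 CPM in wild type and 100.4, 116.8 and 99.3 CPM in strong CKO. Chga, a protein of their granules, held 0.174, 0.226 and 0.187 CPM in wild type and 0.64, 0.678 and 0.669 CPM in strong CKO (1.74 ± 0.31 (SE), adjusted p = 0.00259), and Uchl1 changed by 1.15. The sex-matched fit called 14 cilia, 5 secretory and 3 neuroendocrine rises, without Chga or Reg3g.

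**Figure D4:**
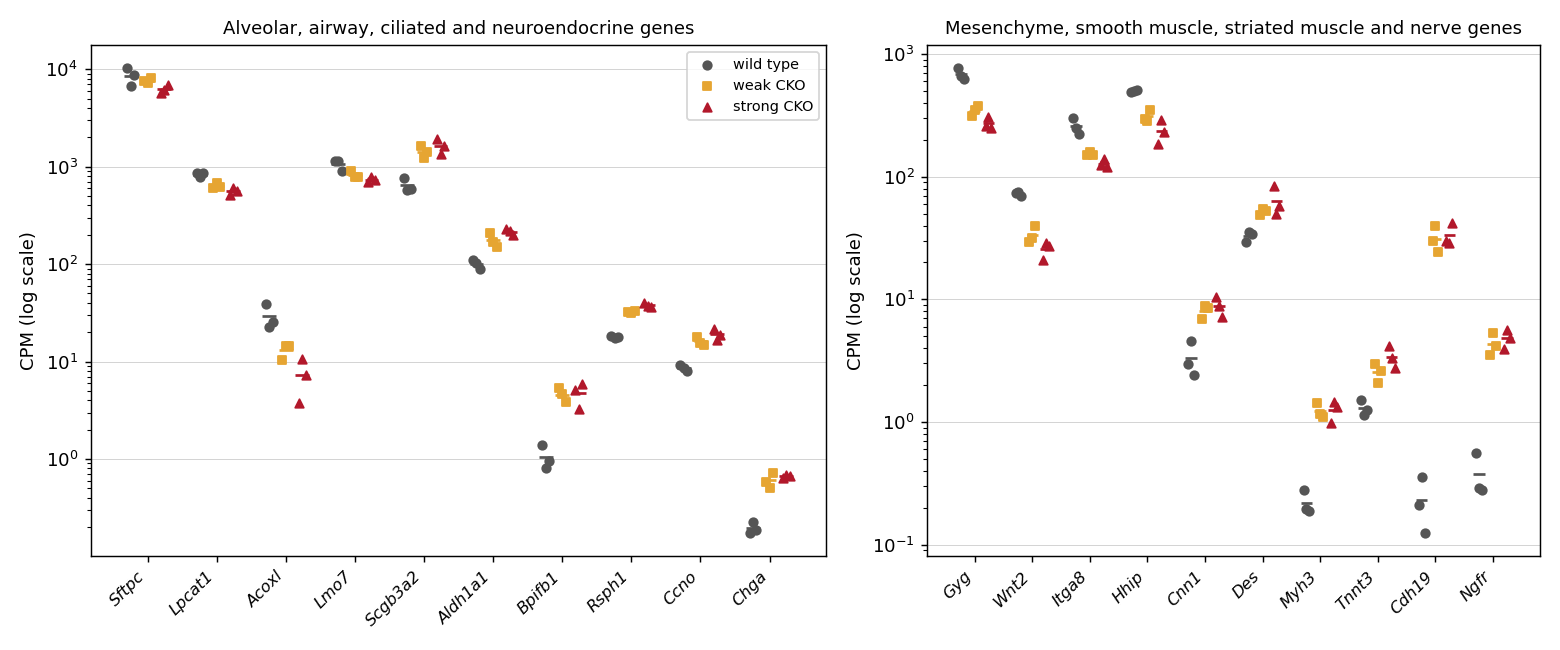
Level of epithelial genes (left) and of mesenchyme, muscle and nerve genes (right) in CPM on a log axis, with 1 point per library, a dash at each group mean, and colours for wild type, weak CKO and strong CKO. Strong CKO points lie below wild type for Acoxl, Gyg and Wnt2 and above it for Rsph1, Ccno, Cdh19 and Ngfr.

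Genes of muscle and nerve, tissues around or within the lung, rose more often than they fell, and how much of each tissue was dissected cannot be read from these libraries. Of 21 striated muscle genes, 13 rose, 1 fell and 7 were not called, and the list summed to 332, 325 and 373 CPM in wild type and 632, 502 and 391 CPM in strong CKO. Myh3, an embryonic myosin of skeletal muscle, held 0.279, 0.194 and 0.187 CPM in wild type and 0.979, 1.46 and 1.34 CPM in strong CKO (2.51 ± 0.30 (SE), adjusted p = 3.11e-04), Tnnt3 changed by 1.40, and Myl4 and Tnnc1, of heart and pulmonary vein muscle, by 1.10 and 1.17. The rises numbered 8 without WT_268_1 and 7 with a covariate for the Y-linked level. The list's median was 0.948, and 1.06 in the sex-matched fit, which did not call Myl4 (1.06) or Tnnc1 (1.16). Of 19 nerve and Schwann cell genes, 10 rose and 9 were not called. At an unadjusted p below 0.05 in edgeR, 11 were higher and 3 lower. The list summed to 212, 196 and 192 CPM in wild type and 252, 241 and 245 CPM in strong CKO. Most of the difference between these sums lay in Cdh19 alone. Cdh19, a Schwann cell cadherin, held 0.209, 0.355 and 0.124 CPM in wild type and 29.8, 28.9 and 42 CPM in strong CKO (7.17 ± 0.34 (SE), adjusted p = 3.26e-06), the neurotrophin receptor gene Ngfr 0.558, 0.291 and 0.28 CPM in wild type and 3.95, 5.6 and 4.85 CPM in strong CKO (3.67), the filament gene Prph changed by 3.39 and the neuronal tubulin gene Tubb3 by 2.91. The mesothelial factor Wt1 changed by 1.18, with 4 rises among 12 mesothelial genes. Cartilage gave 4 rises and 2 falls of 15: Acan, aggrecan, changed by 2.84, Col11a1 by 1.33 and Sox5 by −0.95. Rises numbered 2 in mesothelium and 2 in cartilage without WT_268_1, WT_549_2 or MUT_S_265_5. The part of such tissues in other results was not tested.

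Among the signalling pathways of branching, FGF genes fell more often than they rose. Of 18 tested, 2 rose, 10 fell and 6 were not called (median −0.40). Dusp6, a phosphatase induced by FGF and ERK activity (ENSMUSG00000019960, chr10:99263231-99267489, plus strand), held 123, 126 and 127 CPM in wild type and 61.6, 73 and 79.3 CPM in strong CKO (−0.81 ± 0.09 (SE), adjusted p = 1.54e-04), and the epithelial receptor gene Fgfr2 changed by −0.41. The ligand gene Fgf2 and the mesenchymal receptor gene Fgfr1 went the other way (0.77 and 0.49). Hedgehog genes rose more often, with 8 rises and 2 falls of 14 (median 0.37): the co-receptor gene Gas1 held 23.8, 18.8 and 22.7 CPM in wild type and 47, 40.4 and 50.5 CPM in strong CKO (1.08 ± 0.11 (SE), adjusted p = 1.31e-04), the co-receptor gene Boc changed by 0.70, while the antagonist Hhip held 496, 503 and 508 CPM in wild type and 184, 292 and 234 CPM in strong CKO (−1.09 ± 0.15 (SE), adjusted p = 8.05e-04). Without MUT_S_265_5 the hedgehog rises numbered 5. Hhip and Fgfr2 were not called in the sex-matched fit.

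BMP and TGF-beta genes gave 12 falls and 2 rises of 33 (median −0.24, or −0.126 without WT_265_1, −0.363 without WT_549_2 and −0.361 without MUT_S_268_4). The sex-matched fit called 2 falls and 1 rise. The co-receptor gene Tgfbr3 held 179.6, 139.8 and 151 CPM in wild type and 87.7, 94.3 and 96.7 CPM in strong CKO (−0.76 ± 0.09 (SE), adjusted p = 2.75e-04), the signal transducer gene Smad9 changed by −0.81, Bmp6 by −0.58 and the ligand gene Tgfb3 by 0.61. Of 36 Wnt genes, 5 rose and 7 fell: beside Wnt2, the Wnt-binding antagonist gene Sfrp1 held 14.3, 12.8 and 12.4 CPM in wild type and 35.7, 32.4 and 37.7 CPM in strong CKO (1.42 ± 0.09 (SE), adjusted p = 6.71e-06) and the noncanonical ligand gene Wnt11 changed by 1.65. Both PDGF receptor genes fell (Pdgfra −0.67) and 4 further PDGF genes were not called. Igf1, the growth factor, rose from 80.7, 173 and 126 CPM in wild type to 419, 403 and 397 CPM in strong CKO (1.68 ± 0.23 (SE), adjusted p = 0.00128), its receptor gene Igf1r changed by −0.54, and of 15 IGF genes, 5 rose, 3 fell and 7 were not called. Notch genes gave 4 rises and 4 falls of 17, with the vascular receptor gene Notch4 at −0.72 and the target gene Heyl at 1.64. Of 17 retinoic acid genes, 6 rose, 2 fell and 9 were not called, with the retinol carrier gene Rbp4 at 1.79. Wnt falls numbered 4 without MUT_S_265_5 and 3 without MUT_S_860_3, IGF rises 3 and Notch rises 1 without MUT_S_265_5, and Notch rises 2 without WT_268_1 and 1 without WT_549_2.

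Stress genes rose more often than they fell. Of 24 genes of the unfolded protein and integrated stress responses, 15 rose, 2 fell and 7 were not called (median 0.38 in strong CKO, 0.33 in weak CKO). Mthfd2, a mitochondrial folate enzyme induced through ATF4, held 3.84, 6.01 and 6.19 CPM in wild type and 20.3, 15.1 and 25.6 CPM in strong CKO (1.93 ± 0.23 (SE), adjusted p = 3.90e-04), the asparagine synthetase gene Asns changed by 1.17 and Atf5 by 1.07, while Vldlr changed by −1.16. Of 32 p53 target genes, 11 rose, 2 fell and 19 were not called (median 0.23 in strong CKO, 0.21 in weak CKO). Gdf15, a secreted stress cytokine, held 0.174, 0.226 and 0.218 CPM in wild type and 1.36, 1.11 and 1.6 CPM in strong CKO (2.69 ± 0.32 (SE), adjusted p = 2.73e-04), the death receptor gene Eda2r changed by 2.11, Trp73 by 1.08 and the death effector gene Bbc3 by 0.54. Apoptosis genes gave 6 rises and 3 falls of 22, with the inflammatory caspase gene Casp4 at 2.04 and Casp12 at 1.71, neither of them called in the sex-matched fit.

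Of 37 genes of the cell cycle and DNA replication, 6 rose, 1 fell and 30 were not called (median 0.21). The median became 0.026 without WT_265_1, 0.352 without WT_268_1 and −0.137 in the sex-matched fit. Ccnd2, a cyclin of the first gap phase, held 164, 183 and 176 CPM in wild type and 386, 327 and 378 CPM in strong CKO (1.06 ± 0.08 (SE), adjusted p = 1.74e-05), and the cell cycle inhibitor gene Cdkn2a changed by 2.01. Hypoxia and glycolysis genes, 33 entries, gave 9 falls and 1 rise (median −0.14, or −0.0829 without MUT_S_265_5): the carbonic anhydrase gene Car12 changed by −1.89, Adm by −1.77 and Ddit4 by 0.52. The falls numbered 5 without WT_265_1, 5 without MUT_S_265_5 and 4 without MUT_S_268_4. Among 43 cytosolic ribosomal protein genes, 9 fell and 34 were not called (median −0.20), with Rps4x at −0.50. DESeq2 called 16 of them as falls, and when single strong CKO libraries were left out 3 to 5 fell. Rps4x was not called in the sex-matched fit.

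**Figure D5:**
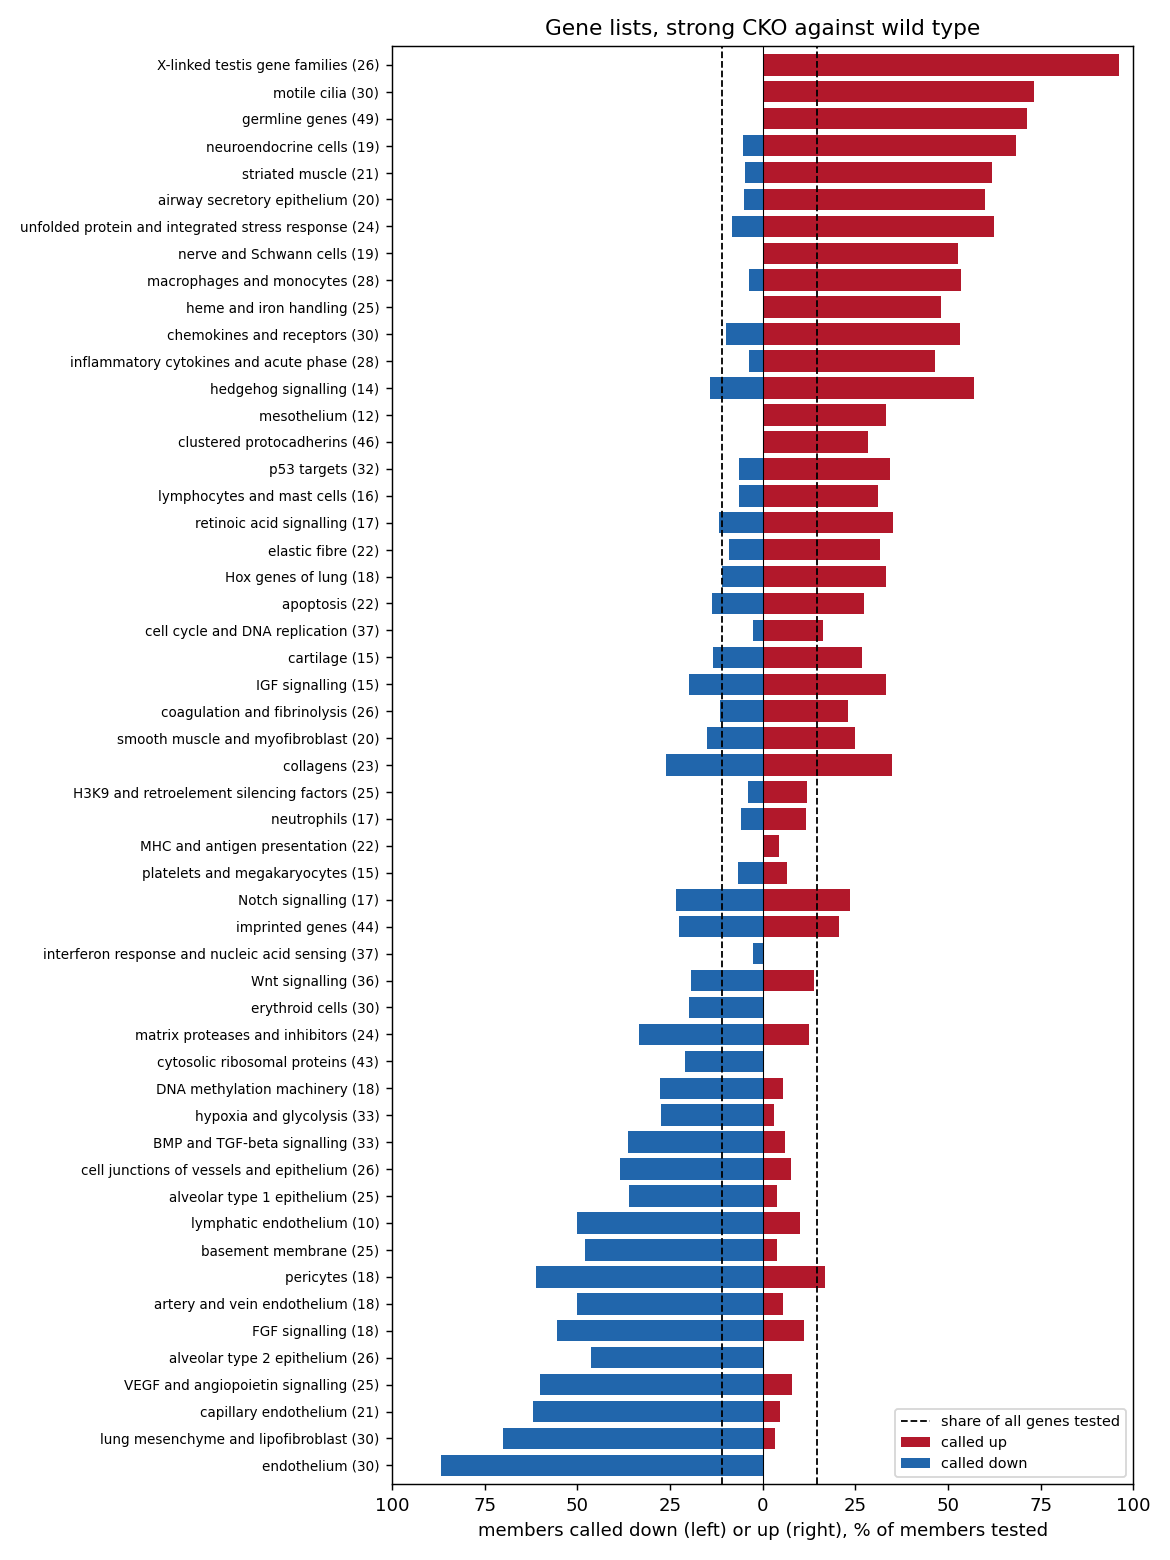
Share of each list's tested members (their number in parentheses) that fell (left) or rose (right) in strong CKO against wild type, in percent. Dashed lines give the shares over all tested genes, 14.6% up and 11% down. X-linked testis families, motile cilia and germline genes have the longest bars to the right, and endothelium has the longest to the left.

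Set directly against weak CKO, strong CKO lungs gave few calls. Of 19374 genes, 0 rose (0%) and 1 fell (0.00516%) in edgeR, with 1099 at an unadjusted p below 0.05, while DESeq2 called 2 rises and 8 falls. The median size of the log2 change was 0.107, against 0.247 for strong CKO against wild type. Blood lists had larger medians between the CKO groups, 1.09 for haemoglobins, 0.801 for platelets and 0.404 for erythroid genes, with no member called. The medians were −0.191 for endothelium and −0.248 for pericytes. Haemoglobin genes took 0.42%, 0.39% and 0.37% of counts in weak CKO, less than in any strong CKO library. Falls against wild type were more numerous in strong than in weak CKO over all tested genes (2139, 11%, and 1042, 5.38%). The same held for endothelial (26 and 12) and pericyte genes (11 and 3), yet no gene of these 2 lists was called between the CKO groups. The exception over all genes was Rpl35a, a ribosomal protein gene, which held 89, 79 and 77.6 CPM in strong CKO, 141, 149.6 and 163 CPM in weak CKO and 102, 92.2 and 96.7 CPM in wild type.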

How the data were processed

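Whole lung RNA was extracted with Trizol and spin columns with DNase treatment, and TruSeq libraries were sequenced as single reads of 75 nt, with 50 M reads per sample stated, per the labels' protocols. The authors deposited 1 table with raw counts per gene and library, the gene length in bases, and RPKM values scaled by the authors per kilobase of that length and library size, per the file headers. The submitters' processing notes name STAR and GRCm38.p6, with FastQC 0.11.8, Trimmomatic 0.36, cutadapt 2.5 and edgeR 3.28.1. The counting tool, strandedness and handling of multi-mapped reads are not given in the sources used here. Values of paralogous, overlapping and antisense genes are therefore uncertain.

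The members and gene lists were chosen with earlier results of these data known. The counts were filtered by group (filterByExpr, 19374 of 27207 genes kept), scaled by TMM (0.938 to 1.04 in all libraries) and fitted over all 9 libraries, which share 1 estimate of spread (common biological coefficient of variation 0.15), with edgeR 4.0.16 in R 4.3.3. Strong CKO was tested against wild type, and against weak CKO, by two-sided robust quasi-likelihood F tests with Benjamini-Hochberg adjustment over all genes, threshold 0.05. SEs derive from the fitted change and its F statistic. Scripts were tested on simulated counts. The floor for a gene without wild type counts was 3 counts over the wild type libraries (0.0327 CPM), and 95% intervals of count ratios cover counting error only. Where a list median or range is given with bounds, called rises with 3 or fewer wild type counts were all set at this floor. Genes were named by rule: Dnmt1, Xist, Ddx3y, the haemoglobins, the 12 largest rises and 12 largest falls (called, with an informative symbol, groups that do not overlap and a mean log2 CPM of 1 or more), up to 4 called members per list by adjusted p, or 2 by abundance where none was called, and up to 6 per direction for strong against weak CKO. The lists numbered 59, with 1359 of 1432 genes in the table. Gene positions are on GRCm38 from GENCODE M21, where 27197 of 27207 identifiers matched. Alternatives were DESeq2 1.42.0, limma 3.58.1 on log2(RPKM + 1) and log2(RPKM + 0.1), other factors, no filter, only the groups compared, the library number as a block, each library left out, haemoglobin and mitochondrial genes left out, a covariate for the erythroid or the Y-linked level and, chosen after seeing the data, only the libraries without Y-linked expression. Some genes that the naming rule picks are not reported here, and the counts include them.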

Additional observations from a re-analysis of the deposited data

Results flagged for a closer look

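Rpl35a, which encodes a protein of the large ribosomal subunit (ENSMUSG00000060636, chr16:33056453-33060189, plus strand), was the only gene for which strong and weak CKO differed in edgeR's quasi-likelihood test: strong CKO minus weak CKO gave a log2 change of −0.89 (Benjamini-Hochberg adjusted p = 0.00624). The libraries held 89, 79 and 77.6 CPM in strong CKO, 141, 149.6 and 163 CPM in weak CKO and 102, 92.2 and 96.7 CPM in wild type, so the weak CKO libraries lay above wild type and the strong CKO libraries below it. Against wild type it changed by −0.24 in strong CKO (adjusted p = 0.0411) and by 0.64 in weak CKO (adjusted p = 0.000475). With the erythroid level as a covariate no gene, Rpl35a included, passed the threshold between the CKO groups.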

How the results depend on the processing

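No setting turned the sign of any of the 4969 genes called between strong CKO and wild type, and the median log2 change over all genes stayed within −0.00913 to 0.0266. The 2830 rises became 1723 with a covariate for the Y-linked level and 914 with only libraries without Y-linked expression, an alternative chosen after seeing the data that leaves 1 wild type library. They were 1937 to 2769 when leaving out each library in turn. The 2139 falls became 1191 and 604 under the first of these settings and the second, and 1164 to 2046 when leaving out each library, fewest without MUT_S_265_5 and 1376 without MUT_S_860_3. Dropping MUT_S_265_5 kept 3039 of the 4969 calls (61.2%). With the library number as a replicate block there were 2575 rises and 1875 falls, and 3835 calls were shared (77.2%). Whether the numbers pair the samples is not settled by the data. Same-numbered wild type and strong CKO libraries correlated at 0.112 and 0.083 over 2 pairs. The 7 same-numbered pairs over all groups lay at −0.0869 to 0.346, with 4 over 0.1, and differently numbered pairs at −0.38 to 0.19. Among the weak CKO libraries, WT_265_1 and WT_549_2 correlated best with the one of their own number (0.299 and 0.346), and WT_268_1 with one of another number. Of the named genes printed, the block ended the calls of Hmox1, Zim1, Acoxl, Des, Inmt, Clec1b, Hba-x, Gadd45a and Suv39h2.

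Between strong and weak CKO the 0 rises became 2 with DESeq2, 1 with log2(RPKM + 0.1), 5 with only libraries without Y-linked expression and 0 to 3 when leaving out each library. The 1 fall became 8 with DESeq2, 4 with only the groups compared, 3 with the replicate block, 6 with only libraries without Y-linked expression, 0 with the erythroid covariate (edgeR) and 1 to 2 when leaving out each library. Dnmt1 (−0.53) was no longer called on the log2(RPKM + 1) (−0.38) and log2(RPKM + 0.1) (−0.49) scales, without the filter (−0.52), with upper quartile factors (−0.51), with the 6 libraries alone (−0.53) or only libraries without Y-linked expression (−0.82). It ranged from −0.67 to −0.36 when leaving out each library and was −0.43 with the replicate block. For all of these the cause was not tested.

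Signs reversed only for genes not called. Hbb-y went from 0.30 to −0.21 with the Y-linked covariate and −0.014 with only libraries without Y-linked expression. Hbq1b went from −0.22 to 0.18 with the erythroid covariate and from −0.77 to 0.032 when leaving out each library, above 0 without WT_265_1 (0.017) or MUT_S_265_5. The mitochondrial gene mt-Co1 went from −0.05 to 0.064 with the erythroid covariate and from −0.18 to 0.092 when leaving out each library, above 0 without WT_265_1 or MUT_S_860_3 (0.0071), and Ddx3y to 0.045 with the Y-linked covariate. Adding 1 to RPKM shrinks the changes of low genes by construction: Pet2 gave 2.81 on that scale, the germline median 0.71 and the X-linked family median 0.55. Depth limits the genes with few wild type counts: folds of those with 0 counts are lower bounds, and ratios of those with 1 to 3 counts have wide counting intervals.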

Other observations

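Writers, erasers and readers of DNA methylation gave 1 rise and 5 falls among 18 tested genes (median −0.10). The demethylase gene Tet1 held 38.2, 44.3 and 40.8 CPM in wild type and 30.3, 34.2 and 30.5 CPM in strong CKO (−0.38 ± 0.08 (SE), adjusted p = 0.00597, edgeR), the methyl-CpG reader gene Mbd2 changed by −0.26 and Gadd45a, the 1 rise, by 0.46, a call that ended without MUT_S_860_3 and with only libraries without Y-linked expression. The list's median was between −0.066 and −0.0541 without WT_268_1, WT_549_2 or MUT_S_265_5. The 5 falls became 2 without MUT_S_265_5 or without MUT_S_860_3 and 3 without WT_268_1 or without WT_549_2. Of 25 factors of H3K9 methylation and retroelement silencing, 3 rose and 1 fell: the chromatin remodeller gene Hells held 15.7, 30.7 and 21.8 CPM in wild type and 40, 39.5 and 38.1 CPM in strong CKO (0.78 ± 0.19 (SE), adjusted p = 0.0163, edgeR), a call that ended without WT_549_2 or MUT_S_265_5, and Atrx changed by −0.33, a call that ended without WT_268_1, MUT_S_265_5 or MUT_S_860_3.

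Rxrg, a retinoid receptor gene, held 0.0349, 0.0323 and 0.0934 CPM in wild type and 0.941, 0.714 and 0.468 CPM in strong CKO (3.60 ± 0.55 (SE), adjusted p = 0.00112, edgeR), and Stra6, a retinol transporter gene, held 0.384, 0.258 and 0.342 CPM in wild type and 1.58, 0.999 and 0.936 CPM in strong CKO (1.82 ± 0.35 (SE), adjusted p = 0.00392, edgeR), the latter not called on the log2(RPKM + 1) scale or with only libraries without Y-linked expression. Suv39h2, a histone methyltransferase gene, held 2.62, 4.1 and 3.24 CPM in wild type and 20, 18 and 20.5 CPM in strong CKO, and its call ended when any of the 6 libraries was left out. The 8 mitochondrial genome genes of the list that were counted took 2.35 ± 0.214% of all counts in strong CKO and 2.07 ± 0.241% in wild type (SD, n = 3, exact two-sided permutation p = 0.3).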
